A study of Mus musculus with 17 samples.

Results

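The motile cilia genes were a list of 44 genes for the parts of the motile cilium and for the programme that builds it: axonemal dyneins, radial spokes, rulers and nexin links, the central apparatus, tektins, cilia and flagella associated proteins, a dynein assembly factor, ciliogenesis regulators and other genes of ciliated cells. They were taken by gene symbol from the deposited table of 54146 genes; 42 were found under the listed symbol and 2, Dnai1 and Dnai2, under the older names Dnaic1 and Dnaic2. The rule takes genes by symbol and uses no measured value, but the list was chosen with earlier results of these data known. All 44 passed the filter on low counts, as did 19557 genes of the whole series.

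Total RNA was sequenced from the lung of mice labelled as Clic4 knockout (KO) and of wild-type mice (WT). Clic4 encodes chloride intracellular channel 4, and the series title places the question in the host lung during metastasis of mouse breast tumours. All groups carried the strain label FVB/6DT1, and the labels do not say what was done to the mice or how the knockout was made. There were 4 WT and 2 KO libraries at day 0, from mice of 6 weeks, and 6 WT and 5 KO libraries at day 14, from mice of 8 weeks, so day and age cannot be told apart. The libraries held 20607811 to 35743830 counts. The S numbers in the library titles fall in separate blocks for WT and KO, and what they stand for is not stated. Any difference in handling that follows them cannot be told apart from genotype. The labels do not tie a library to an animal, and the series' design text gives other group sizes, so p-values here reflect only how far the libraries of a group differ, and that spread may be technical. Clic4 ran from 301.5 to 399.1 CPM (counts scaled to a common library total) in the KO libraries of day 14 and from 927.1 to 1281 CPM in WT. At day 0 it ran from 324.4 to 327.5 CPM in KO against 924.7 to 953.2 CPM in WT. Every KO library was below every WT library of its day, but Clic4 RNA was reduced in KO and not absent. The defining genes of lung epithelium were abundant at day 14: Scgb1a1 of club cells averaged 16600 CPM in KO (SD 1860, n = 5) and 15400 CPM in WT (SD 1420, n = 6), and Sftpc of alveolar type 2 cells 12100 CPM (SD 1020) and 11600 CPM (SD 804).

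Motile cilia line the conducting airways and beat to move mucus toward the throat. Outer and inner dynein arms slide the microtubule doublets of the axoneme, radial spokes and the central apparatus set the beat, and rulers such as Ccdc39 and Ccdc40 place the arms at fixed intervals. Cells that carry many cilia switch on Mcidas, Ccno and Deup1 to multiply their centrioles, and the transcription factors Foxj1, Rfx2 and Rfx3 then turn on the genes of the axoneme.

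The RFX factors bind the X-box, whose left arm is spelled GTTGCC, and forkhead factors such as Foxj1 bind sites spelled TGTTTAC, so both were searched on both strands of the promoter windows of RefSeq on build GRCm38.p6, from 250 bases before to 50 bases after each start. Windows were matched for 38 of the 44 genes. GTTGCC was present for 22 of the 38 (57.9%) and for 14.1% of 27025 genes with a window. TGTTTAC was present for 3 of the 38 (7.89%; Ak7, Cfap43 and Sntn) and for 4.05% of all. The paired spelling GTTNCC then GGNAAC with 0 to 3 bases between, which contains the GTTGCC match where N is G, was present for 0 of the 38 and for 0.936% of all. The search took these letters exactly, so the 0 is for this spelling only and does not cover near matches. In the Cfap44 stretch below, GTTGCT stands shortly before GGCAAC, a near match that was not counted. The stretches below, each 60 bases of the sense strand before the start, are shown because they hold the spelling in inner arm dyneins and Cfap44, which had some of the largest KO values at day 14, and in Tekt2 and Dnah7b, which did not. Capitals mark GTTGCC or its reverse complement, and each line gives the position and strand of the stretch.
Dnah10, chr5:124725025-124725084, plus strand: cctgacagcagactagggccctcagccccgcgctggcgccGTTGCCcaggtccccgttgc
Cfap44, chr16:44394739-44394798, plus strand: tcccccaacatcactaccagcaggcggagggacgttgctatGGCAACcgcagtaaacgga
Dnah7a, chr1:53706955-53707014, minus strand: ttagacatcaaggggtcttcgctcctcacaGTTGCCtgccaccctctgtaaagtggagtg
Dnah7b, chr1:46066660-46066719, plus strand: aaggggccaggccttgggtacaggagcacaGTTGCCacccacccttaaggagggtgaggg
Tekt2, chr4:126325755-126325814, minus strand: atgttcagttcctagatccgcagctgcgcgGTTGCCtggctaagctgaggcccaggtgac

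The match starts 20 bases before the start in Dnah10, 19 in Cfap44, 200 in Dnah7a, 163 in Dnah7b and 96 or 138 in Tekt2, which has 2 starts; Cfap44 and Tekt2 hold further matches. Ak7, an adenylate kinase of ciliated cells, shows the forkhead spelling, in capitals, 131 bases before its start.
Ak7, chr12:105705821-105705880, plus strand: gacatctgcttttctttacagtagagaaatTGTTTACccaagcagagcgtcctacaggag

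A match is a description of letters and not of a bound site. At day 14 the 22 genes with GTTGCC had a median KO against WT log2 value of +0.21 (-0.24 to 0.44), and the 16 without it a median of +0.24 (-0.04 to 0.43), and the ranges overlapped.

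Levels between genes were compared per length, as FPKM in the authors' table, as means over the 17 libraries. FPKM divides fragments by depth and by a length of each gene. That length need not be the summed exon length, so orders by FPKM can differ from orders by counts over exon length. Tppp3, which encodes a tubulin polymerization promoting protein, stood far above the rest at 327 FPKM (SD 24.8). The next were Foxj1 at 29.3 FPKM, the membrane protein gene Tmem212 at 27 FPKM, Cfap126, which positions basal bodies, at 25.9 FPKM, the cadherin gene Cdhr4 at 25.4 FPKM and Cfap43, with the doubt on its reads given below, at 24 FPKM. Neighbours in this order of 5 differed by less than their SDs, which were 5.45, 3.57, 3.36, 4.77 and 3.21 FPKM. Of the radial spoke genes, Rsph1 had 21.1 FPKM, Rsph9 12.2 FPKM and Rsph4a 4.35 FPKM. Of the tektins, which run along the doublets, Tekt2 had 13.3 FPKM, Tekt1 8.89 FPKM and Tekt4 6.18 FPKM.

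The rulers and links followed, with Ccdc40 at 12.1 FPKM, Ccdc113 at 8.36 FPKM, Ccdc39 at 7.17 FPKM and Drc1, of the nexin link, at 6.67 FPKM. Zmynd10, which helps to assemble dynein arms in the cytoplasm, had 9.16 FPKM. The cadherin gene Cdhr3 had 11.2 FPKM, Ak7 9.3 FPKM and Sntn, of the ciliary tip, 7.11 FPKM. Of the remaining cilia and flagella associated proteins, Cfap44 had 5.58 FPKM, Cfap52 3.22 FPKM and Cfap53 3.15 FPKM.

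The dynein arms were measured at lower levels per length. The intermediate chains Dnai1 and Dnai2 had 8 and 5.32 FPKM. The outer arm heavy chains Dnah9, Dnah11 and Dnah5 had 3.45, 2.55 and 1.98 FPKM. Of the 7 inner arm heavy chains, Dnah3 had 3.26 FPKM, Dnah10 2.74, Dnah6 2.48, Dnah7a 2.22, both Dnah7b and Dnah2 1.46, and Dnah12 1.14 FPKM. Counts over summed exon length gave another order. Dnah5 had 30.6 CPM over 15637 exon bases, Dnah9 21.2 CPM over 15949 and Dnah11 13.5 CPM over 14458. Dnah12 had 13.5 CPM over 12009 exon bases and Dnah7a 3.66 CPM over 12767. The order of the heavy chains by level is therefore uncertain. Central apparatus genes had FPKM similar to those of the dynein arms, with Spag6 at 4.77 FPKM, Spef2 at 1.79 FPKM, Spag17 at 1.22 FPKM and Hydin at 1.05 FPKM. Regulators other than Foxj1 were low: Rfx2 had 6.46 FPKM, Ccno 2.33 FPKM, Rfx3 1.57 FPKM, Deup1 1.09 FPKM and Mcidas 0.219 FPKM, the lowest of the 44.

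Some rows can hold reads of another gene. Dnah7a and Dnah7b, both on chromosome 1, are close copies, so the split of reads between them is uncertain. The row named Spag6 in the files lies on chromosome 16 and has the name Spag6l in the reference by its gene ID. Exons of 15 of the 44 genes overlap exons of another gene in GENCODE M21, and 5 of them over at least 10% of their exon bases; the sources used here do not say whether counting used strand. Ccdc39 shares 16.9% of its exon bases with Ttc14 on the opposite strand, a gene of 99.9 CPM, and Dnah3 shares 10.5% with Lyrm1, of 3.95 CPM. Cdhr4 shares 28.8 and 18.5% with Gm20662 and Gm20661 on its own strand, of 2.67 and 2.83 CPM. The span of Cfap43 takes in Itprip on the same strand, and Itprip had no values of its own among those analysed here, so the Cfap43 row may hold its reads; this was not tested.

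The first KO library of day 14 stood apart before any group was compared. A score per library was taken as the mean over the 44 genes of log2 CPM minus each gene's mean over the 17 libraries. It was 0.376 in that library and ran from -0.22 to 0.127 in the other 16. All 44 genes were above their own mean in it, 32 were highest there of all 17 libraries, and their levels summed to 1262 CPM against 917.2 to 1100 CPM elsewhere. At the other end, the third WT library of day 14 had a score of -0.22 and held the lowest value of 11 genes. The heat map of the genes by library shows both columns. For the genes with values by library, the roles and the lists of related genes, day 14 results are therefore also given without the first KO library.

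**Figure D1:**
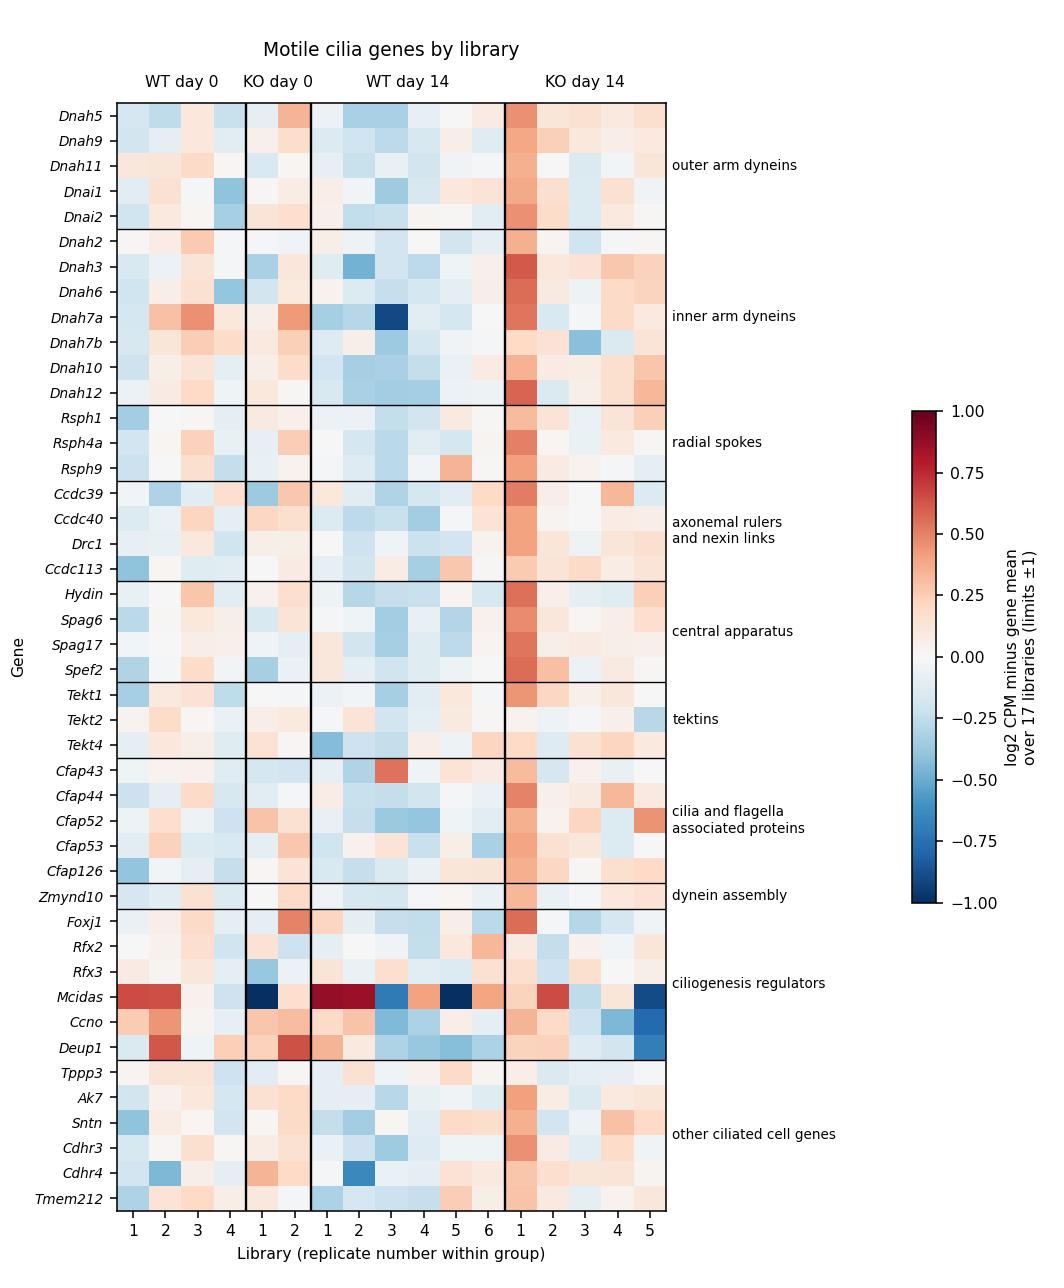
Heat map of log2 CPM minus each gene's mean over the 17 libraries (colour, limits ±1), with the 44 genes in rows grouped by role and the libraries in columns grouped by genotype and day. The first KO column of day 14 is above the mean in all 44 rows, and the low-count Mcidas shows both ends of the colour scale within groups.

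Most of the genes varied together over the libraries. Over the 946 pairs of genes the median Pearson r of log2 CPM was 0.48 (-0.48 to 0.91) and 89.3% were positive; the pairs share the same 17 libraries, so this is a description. Without the first KO library of day 14 the median was 0.34 and 80.4% were positive, and for deviations from the group means it was 0.47. The correlation of a gene with the mean of the other 43 was highest for Rsph4a (0.95), Cdhr3 (0.92) and Dnah6 (0.89). It was lowest for Mcidas (-0.01), Cfap43 (0.04, with the same doubt on its reads), Tppp3 (0.13), Rfx3 (0.15), Rfx2 (0.19), Tekt2 (0.22) and Ccno (0.25).

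At day 14, 38 of the 44 genes had a higher fitted level in KO than in WT lung, but no gene passed the test over all genes. The median log2 fold change was +0.226 (range -0.24 to 0.45), where the median over all 19557 genes was 0.00109 and 50.3% were positive. By edgeR's quasi-likelihood test with Benjamini-Hochberg adjustment 0 of the 44 were called, as were 0.107% of all genes tested, and the smallest adjusted p of the 44 was 0.13. At an unadjusted p under 0.05, 22 were higher and 0 lower, against 4.92% of all genes higher and 4.03% lower. The 44 genes were chosen with earlier results known, so these counts describe the list and do not test it. By limma-voom 0 of the 44 and 16 of all 19557 genes were called. By DESeq2 4 of the 44 were, namely Dnah3, Dnah9, Dnah10 and Dnah12, and 109 of all 19557. Without the first KO library the median was 0.157, 35 were positive and 15 were higher at an unadjusted p under 0.05, with 0 called. Of all genes, 5.0% were then higher at that threshold. In bulk lung, a difference in the number of ciliated cells and one in RNA per ciliated cell cannot be told apart.

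The score showed the same overlap. It averaged 0.103 (SD 0.157, n = 5) in KO at day 14 and -0.092 (SD 0.088, n = 6) in WT. Without the first library the KO mean was 0.034 (SD 0.04, n = 4), with a range of -0.022 to 0.066, which still overlapped the WT range of -0.22 to 0.013. Every KO library was above every WT library for 3 of the 44 genes, Dnah3, Dnah5 and Dnah9, and this held for 0.583% of all genes tested.

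**Figure D2:**
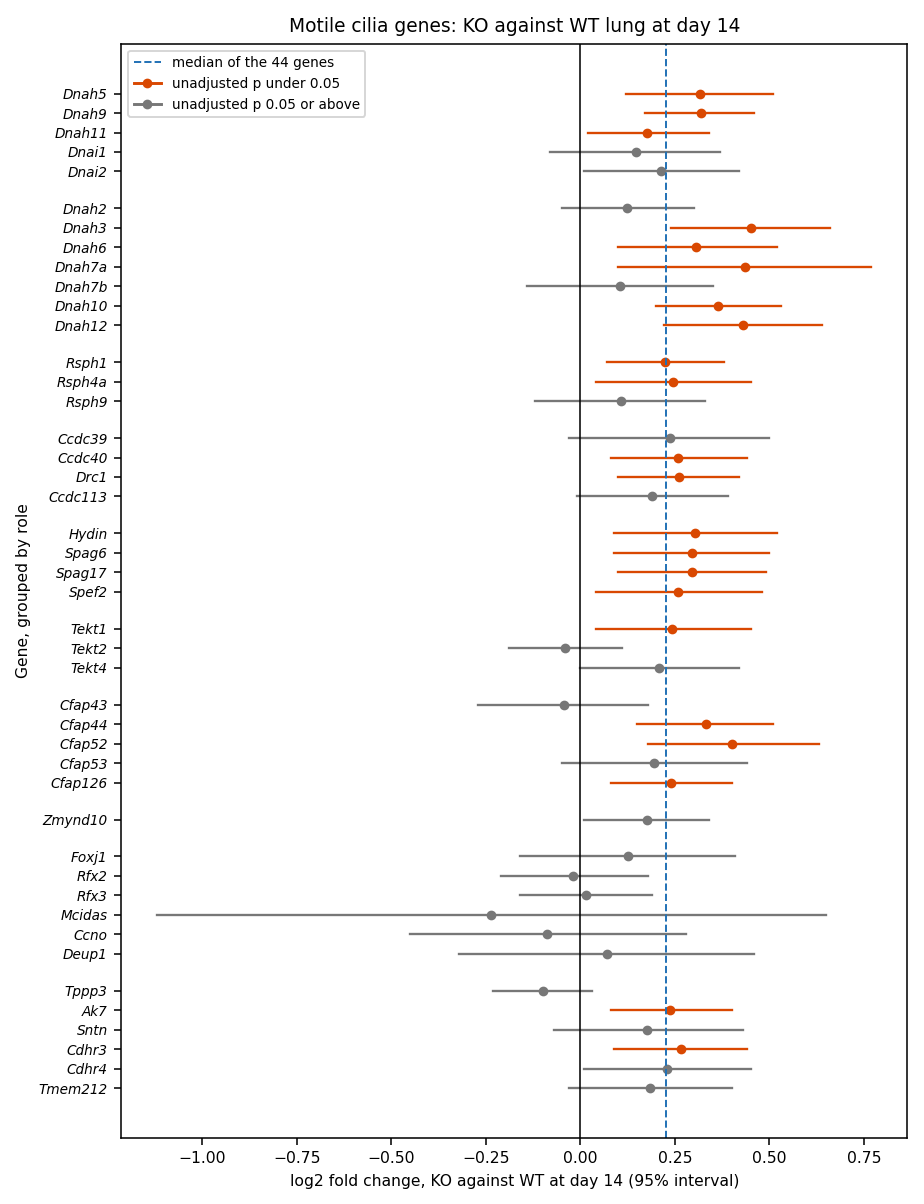
Log2 fold change of KO against WT lung at day 14 for each of the 44 genes (points) with its 95% interval (bars), grouped by role; colour marks an unadjusted p under 0.05 and the dashed line the median of 0.226. The 6 ciliogenesis regulators, from Foxj1 to Deup1, lie around 0, and all 12 dynein arm genes lie above it.

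Outer arm dyneins give most of the power of the beat. All 5 genes were positive at day 14, from 0.15 to 0.32 on the log2 scale, with 3 at an unadjusted p under 0.05. For this and the other roles, the share of all genes higher at that threshold was 4.92%, and 5.0% without the first KO library. Leaving out the first KO library took their median from 0.214 to 0.124, with 5 positive and 2 at an unadjusted p under 0.05. Dnah9 (chr11:65831282-66168551, minus strand), a heavy chain of the distal part of the cilium, stood in the 5 KO libraries at 27.5, 24.81, 22.7, 22.01 and 22.55 CPM, and in the 6 WT libraries ran from 17.53 to 21.96 CPM with a median of 19.01 CPM. The groups did not overlap, by a margin of less than 0.1 CPM. The fold change was 1.25 (log2 +0.32, SE 0.0735, 95% interval 0.17 to 0.46, edgeR adjusted p = 0.13), and +0.267 without the first KO library.

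Dnah5, the outer arm heavy chain found along the whole cilium, had 41.64, 32.97, 33.73, 32.43 and 33.82 CPM in KO and 24.22 to 32.04 CPM in WT, with a median of 28.82 CPM. The first KO library was well above the other 4, which lay close together just above the WT range. Its log2 value was +0.32 (SE 0.0979, edgeR adjusted p = 0.354), and +0.249 without the first KO library. Dnah11, the third heavy chain, had +0.18 (SE 0.0817) and Dnai2 +0.21 (SE 0.104).

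The intermediate chain gene Dnai1 had the highest level per length of the outer arm set. It stood at 13.1, 11.24, 9.144, 11.17 and 9.791 CPM in KO and 7.83 to 11.08 CPM in WT, with a median of 10.2 CPM. Of the KO libraries 3 lay above the WT range, by little in 2 of them, and 2 lay within it. Its log2 value was +0.15 (SE 0.115, edgeR adjusted p = 0.756), and +0.0751 without the first KO library.

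Inner arm dyneins, which shape the bend of the cilium, held the largest differences. All 7 heavy chains were positive, with a median of +0.36, and 5 had an unadjusted p under 0.05. Without the first KO library the median was 0.319, and 4 did.

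Dnah3 (chr7:119922671-120095280, minus strand in GENCODE M21) had 28.54, 20.07, 20.7, 22.52 and 21.91 CPM in the KO libraries and 13.47 to 19.3 CPM in WT, with a median of 16.77 CPM. No KO library fell into the WT range, and the first was again the highest. The fold change was 1.37 (log2 +0.45, SE 0.106, 95% interval 0.24 to 0.66, edgeR adjusted p = 0.137), the largest log2 value of the 44, and +0.359 without that library.

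Dnah10 (chr5:124725085-124834308, plus strand in GENCODE M21) had 26.7, 22.23, 22.08, 23.42 and 25.52 CPM in KO and 16.69 to 22.26 CPM in WT, with a median of 18.08 CPM. The highest WT library, the sixth, reached above 2 KO libraries. The fitted log2 value was +0.36 (SE 0.0839, edgeR adjusted p = 0.13), and +0.326 without the first KO library. Leaving out that WT library gave +0.419 and an adjusted p of 0.0462, the only call of a motile cilia gene by edgeR in any fit with a library left out.

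Dnah12 (chr14:26693274-26891703, plus strand in GENCODE M21) stood at 19.98, 12.07, 13.84, 14.92 and 16.76 CPM in KO and 10.46 to 12.84 CPM in WT, with a median of 11.31 CPM. The second KO library lay within the WT range and the other 4 above it. Its log2 value was +0.43 (SE 0.108, edgeR adjusted p = 0.188), and +0.325 without the first KO library.

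The 2 copies on chromosome 1 had unlike fitted values. Dnah7a had 5.201, 3.206, 3.507, 4.071 and 3.808 CPM in KO and 1.87 to 3.568 CPM in WT, with a median of 3.037 CPM, and a log2 value of +0.44 (SE 0.169, edgeR adjusted p = 0.447). Dnah7b had 4.884, 4.705, 3.163, 3.819 and 4.648 CPM in KO and 3.272 to 4.412 CPM in WT, with a median of 4.001 CPM, and a log2 value of +0.10 (SE 0.127). In each, 3 KO libraries lay above the WT range, and the third KO library of Dnah7b lay below it. Without the first KO library the values were +0.319 for Dnah7a and +0.0511 for Dnah7b. The difference between the copies was not tested. Dnah6 and Dnah2 had log2 values of +0.31 (SE 0.108) and +0.12 (SE 0.089).

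**Figure D3:**
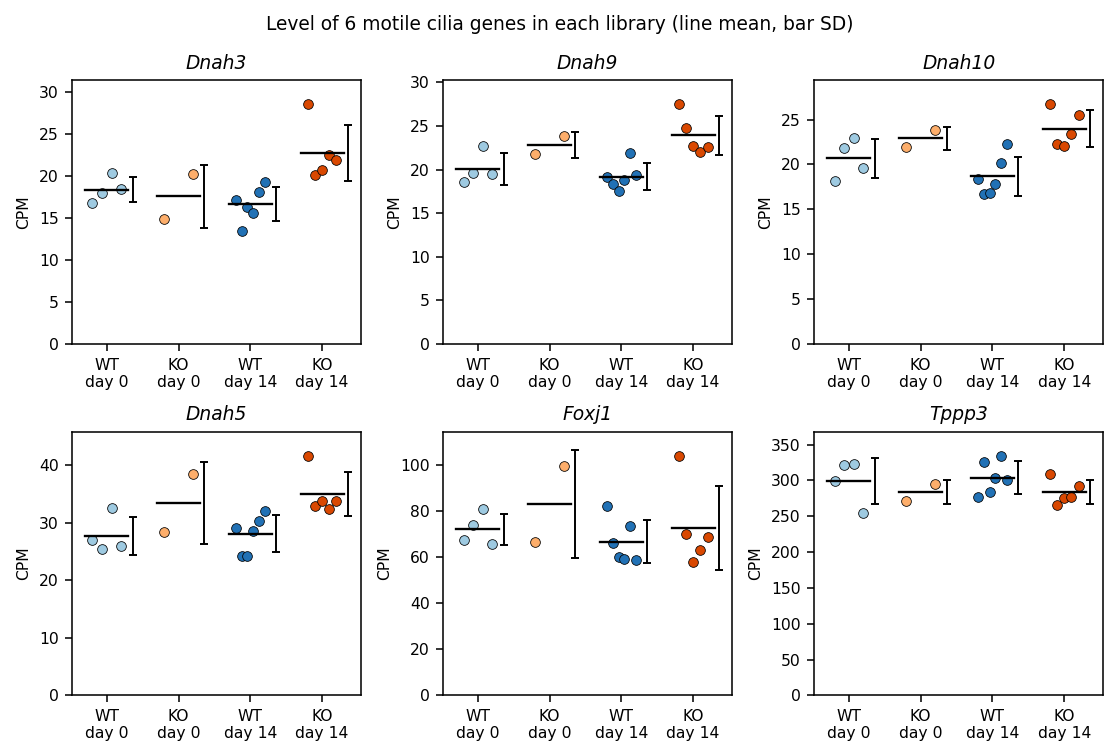
CPM of Dnah3, Dnah9, Dnah10, Dnah5, Foxj1 and Tppp3 in each library (points, in replicate order within a group) by genotype and day, with the group mean (line) and SD (bar). In Dnah3, Dnah9 and Dnah5 the KO points of day 14 lie above all WT points of that day, and for Foxj1 only the first KO library, at 104.1 CPM, does.

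Radial spokes pass signals from the central apparatus to the dynein arms. Their 3 genes were positive, from 0.11 to 0.25, with 2 at an unadjusted p under 0.05. Their median was 0.224, and 0.136 without the first KO library, with 1 then at an unadjusted p under 0.05. Rsph1, a head component, had 25.59, 22.48, 19.64, 22.48 and 24.28 CPM in KO and 17.41 to 21.88 CPM in WT, with a median of 19.73 CPM. All but the third KO library were above the WT range. This gave a log2 value of +0.22 (SE 0.0806, edgeR adjusted p = 0.411), and +0.185 without the first KO library. Rsph4a and Rsph9, of the spoke head, had +0.25 (SE 0.105) and +0.11 (SE 0.114).

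Of the rulers and nexin links, 4 of 4 were positive, from 0.19 to 0.26, with 2 at an unadjusted p under 0.05. The median went from 0.248 to 0.176 without the first KO library, with 1 at an unadjusted p under 0.05. Ccdc40, which with Ccdc39 sets the spacing of the arms, had 29.21, 22.57, 22.23, 23.35 and 23.24 CPM in KO and 17.35 to 24.33 CPM in WT, with a median of 19.54 CPM. Only the first KO library lay above the WT range, and the other 4 were within about 1 CPM of each other near its upper end. The log2 value was +0.26 (SE 0.0928, edgeR adjusted p = 0.409), and +0.185 without the first KO library. Drc1 had +0.26 (SE 0.0814), Ccdc39 +0.24 (SE 0.134) and Ccdc113 +0.19 (SE 0.101).

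Central apparatus genes had the narrowest range of the roles with more than 1 gene, with all 4 between 0.26 and 0.30 and all 4 at an unadjusted p under 0.05. Spag6, an armadillo repeat protein of the central pair, had 14.08, 10.91, 10.24, 10.59 and 11.37 CPM in KO and 7.946 to 10.4 CPM in WT, with a median of 9.712 CPM. The third KO library alone lay within the WT range. The log2 value was +0.29 (SE 0.104, edgeR adjusted p = 0.398) and +0.212 without the first KO library, with Hydin at +0.30 (SE 0.111), Spag17 at +0.29 (SE 0.102) and Spef2 at +0.26 (SE 0.113). The median of the 4 was 0.186 without the first KO library, and 2 had an unadjusted p under 0.05.

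The tektins were mixed, with a median of 0.207, and 0.169 without the first KO library; the count at an unadjusted p under 0.05 went from 1 to 0. Tekt1 and Tekt4 had +0.24 (SE 0.105) and +0.21 (SE 0.108), while Tekt2, the most abundant of them, had -0.04 (SE 0.0776). Tekt2 stood at 12.34, 11.62, 11.93, 12.47 and 9.939 CPM in KO and 10.61 to 13.27 CPM in WT, with a median of 12.01 CPM. No KO library lay above the WT range and the fifth lay below it. The sign of the value turned without the fifth KO library (0.00816) and on log2(FPKM + 1) values (0.0694), and it was -0.0567 without the first KO library.

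Among the cilia and flagella associated proteins Cfap52 had +0.40 (SE 0.114), Cfap44 +0.33, Cfap126 +0.24, Cfap53 +0.20 (SE 0.125) and Cfap43 -0.04 (SE 0.116). Cfap44, a protein of the axoneme, had 27.34, 20.07, 20.67, 24.39 and 20.77 CPM in KO and 16.39 to 20.42 CPM in WT, with a median of 17.77 CPM. Only the second KO library lay within the WT range. The SE of its log2 value was 0.0922 and the edgeR adjusted p was 0.268, and the value was +0.26 without the first KO library. For the 5 genes of this role the median was 0.24 with that library and 0.2 without it, with 3 at an unadjusted p under 0.05 both times.

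Cfap126 had 26.42, 23.86, 20.83, 23.09 and 23.79 CPM in KO and 17.65 to 22.6 CPM in WT, with a median of 19.27 CPM. The third KO library was inside the WT range and the other 4 above it (SE 0.0825, edgeR adjusted p = 0.394, and +0.2 without the first KO library). Zmynd10 had 13.95, 10.53, 10.9, 11.89 and 12.21 CPM in KO and 9.845 to 11.2 CPM in WT, with a median of 10.67 CPM. Of the KO libraries 3 lay above the WT range and 2 within it, with a log2 value of +0.17 (SE 0.0846, edgeR adjusted p = 0.567), and +0.115 without the first KO library.

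Ciliogenesis regulators had fitted values around 0: 3 of 6 were positive, 0 had an unadjusted p under 0.05, and they ran from -0.24 to 0.13. Foxj1 (chr11:116330704-116335399, minus strand), the master regulator of motile cilia, had 104.1, 70.03, 58.09, 62.91 and 68.83 CPM in KO and 58.65 to 82.11 CPM in WT, with a median of 63.23 CPM. The highest of all 17 was the first KO library, and the other 4 lay within or just below the WT range. The log2 value was +0.13 (SE 0.147, edgeR adjusted p = 0.851), and without that library -0.0344 (adjusted p = 0.949), so its sign rested on 1 library.

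Rfx2 and Rfx3 had -0.02 (SE 0.0989) and +0.01 (SE 0.0881). Deup1, Ccno and Mcidas, which act in centriole amplification, had +0.07 (SE 0.201), -0.09 (SE 0.187) and -0.24 (SE 0.451). Mcidas was counted at 0.445 CPM in KO (SD 0.19, n = 5) and 0.523 CPM in WT (SD 0.31, n = 6), and its 95% interval ran from -1.12 to 0.65 on the log2 scale, so its depth allows no firm statement. Of the 6, 0 were positive without the first KO library. The difference between regulators and structural genes was not tested.

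Of the other ciliated cell genes, Cdhr3 had +0.27 (SE 0.0896), Ak7 +0.24 (SE 0.0823), Cdhr4 +0.23 (SE 0.113), Tmem212 +0.18 (SE 0.109) and Sntn +0.18 (SE 0.128). Tppp3, the most abundant of the 44, had 308.2, 265.9, 274.7, 277.1 and 291.8 CPM in KO and 276.6 to 334.5 CPM in WT, with a median of 301.3 CPM. No KO library was above the WT range and 2 were below it. The log2 value was -0.10 (SE 0.0656, edgeR adjusted p = 0.699), and -0.127 without the first KO library. The median of these 6 genes was 0.206, and 0.147 without it, with 5 positive and 2 at an unadjusted p under 0.05 both times.

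The day 14 value was larger in the longest genes. Summed exon length ran from 716 bases (Tmem212) to 19980 (Dnah7b), and the 12 genes above 10000 bases, which are 10 dynein heavy chains, Hydin and Rfx3, were all positive with a median of 0.311. The 10 genes up to 2000 bases had a median of 0.188 with 8 positive. Over the 44 genes Spearman's rho between length and log2 value was 0.42, and over 19495 other genes it was -0.06; genes of a library share that library, so both are descriptions. Other genes above 10000 bases had a median of -0.0112 (n = 1427). Length and role go together here, and the part of each was not tested.

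**Figure D4:**
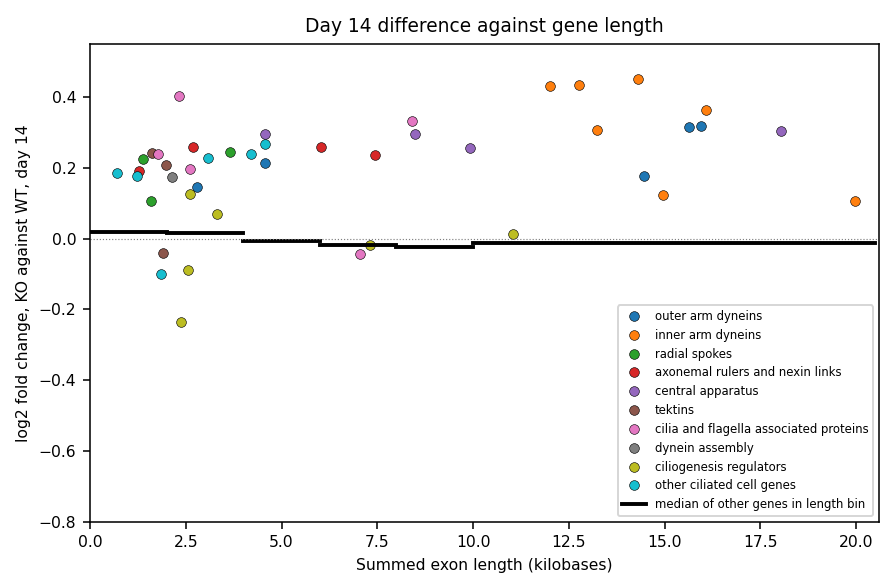
Log2 fold change of KO against WT lung at day 14 (vertical axis) against summed exon length in kilobases (horizontal axis) for the 44 genes, coloured by role; black steps give the median of all other tested genes in each length bin. The 12 genes above 10 kilobases are all above 0, while the steps stay between -0.0247 and 0.0189.

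At day 0 the differences were smaller and rest on 2 KO libraries. The median log2 value was +0.0829, 34 of 44 were positive, and the range was -0.83 to 0.43. By edgeR 0 were called, as were 0.0256% of all genes, with a smallest adjusted p of 0.682; DESeq2 and limma-voom called 0 as well. At an unadjusted p under 0.05, 2 were higher and 0 lower, beside 3.15% of all genes higher and 3.59% lower. The 2 were Cdhr4 (+0.43, SE 0.159) and Cfap126 (+0.25, SE 0.118).

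The KO libraries of day 0 differed from each other. Foxj1 stood at 66.38 and 99.73 CPM in them and at 67.63, 73.92, 80.73 and 65.85 CPM in WT. Dnah5 had 28.3 and 38.38 CPM against 26.97, 25.44, 32.61 and 25.94 CPM. Dnah3 had 14.89 and 20.25 CPM against 16.78, 17.93, 20.39 and 18.45 CPM. In all 3 genes the second KO library was the higher, and the groups overlapped.

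Dnah9 had 21.77 and 23.86 CPM in KO and 18.53, 19.66, 22.66 and 19.45 CPM in WT at day 0 (+0.18, SE 0.105). Dnah10 had 21.95 and 23.82 CPM in KO and 18.17, 21.88, 22.99 and 19.63 CPM in WT. Both KO libraries lay in the upper part of the WT range or just above it. Of the 44 genes, 32 were positive at both days; Pearson's r between the log2 values of the days was 0.46 and Spearman's rho 0.18 over the 44 genes, which share libraries within a day.

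Between the days, no motile cilia gene was called in either genotype. In WT, day 14 against day 0 had a median of -0.057 with 14 of 44 positive (-0.47 to 0.13). By edgeR 0 were called of the 44 and 0.0% of all genes, and at an unadjusted p under 0.05, 0 were higher (4.72% of all genes) and 3 lower (4.34%). The 3 were dynein heavy chains: Dnah7a (-0.47, SE 0.178), Dnah12 (-0.26, SE 0.114) and Dnah11 (-0.21, SE 0.0863). The smallest adjusted p was 0.422, and DESeq2 and limma-voom called 0 of the 44.

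In KO, the median was +0.0678 with 32 of 44 positive (-0.53 to 0.52). Of the 44, 0 were called by edgeR, DESeq2 or limma-voom (edgeR called 0.0% of all genes), with 3 higher at an unadjusted p under 0.05 (4.33% of all genes) and 0 lower (4.72%). They were Spef2 (+0.40, SE 0.16), Dnah3 (+0.37, SE 0.149) and Cfap44 (+0.29, SE 0.13). Without the first KO library of day 14 the median was -0.00301.

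The KO effect of day 14 minus that of day 0 had a median of +0.126 with 35 of 44 positive, and 0.0553 without the first KO library of day 14. By edgeR 0 of the 44 were called, as were 0.0% of all genes, with a smallest adjusted p of 0.988, and DESeq2 and limma-voom called 0. At an unadjusted p under 0.05, 5 were higher (2.52% of all genes) and 0 lower (2.03%): Dnah3 (+0.52, SE 0.187), Dnah12 (+0.42, SE 0.189), Spef2 (+0.42, SE 0.2), Spag17 (+0.38, SE 0.179) and Dnah11 (+0.35, SE 0.143). That no gene was called does not show equal KO effects on both days, since day 0 rests on 2 KO libraries.

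Other genes of the same machinery were also mostly positive at day 14. Of 52 other axonemal genes 49 were positive, with a median of +0.229. At an unadjusted p under 0.05, 24 were higher and 0 lower, and 0 were called by edgeR. For this and the next lists, 4.92% of all genes were higher at the unadjusted threshold and 4.03% lower. Without the first KO library 5.0% of all genes were higher. Ccdc146, a centriole and axoneme protein, came nearest to the threshold at 11.4 CPM in KO (SD 1.61, n = 5) and 7.96 CPM in WT (SD 1.04, n = 6), with a log2 value of +0.52 (SE 0.103, edgeR adjusted p = 0.0682). Rsph14, of the radial spoke, had +0.45 (SE 0.206). The list's median was 0.148 without the first KO library and 12 were then higher at an unadjusted p under 0.05.

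The other dynein assembly factors, 13 of 15 listed being tested, had a median of +0.0743 with 10 positive, 2 of them at an unadjusted p under 0.05, led by Dyx1c1 (+0.45, SE 0.182) and Lrrc6 (+0.40, SE 0.152). Leaving out the first KO library gave a median of 0.0597, with 10 positive and 0 at an unadjusted p under 0.05. Of 22 other regulators of multiciliated cells 13 were positive, with a median of +0.0617 and 3 at an unadjusted p under 0.05. The largest were Cetn4, a centrin of basal bodies (+0.43, SE 0.0922, edgeR adjusted p = 0.0912), and Gmnc, which acts upstream of Mcidas (+0.43, SE 0.188). With the first KO library left out the median was 0.0306, with 13 positive and 2 at an unadjusted p under 0.05. Of 27 intraflagellar transport genes, which load all cilia and not only motile ones, 23 were positive, with a median of +0.101 and 7 at an unadjusted p under 0.05; the largest of at least 1 CPM were Ift88 (+0.19, SE 0.06) and Ift27 (+0.19, SE 0.0884), and without the first KO library the median was 0.082, with 22 positive and 4 at an unadjusted p under 0.05. By edgeR none of these lists held a called gene at day 14, and calls by DESeq2 and limma-voom are not given for them.

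The 10 other genes whose log2 CPM followed the score most closely over the 17 libraries, of 13747 ranked, were Cyp2s1 (r = 0.931), Kif21a (0.924), Maats1 (0.9), Cfap161 (0.899), Dcdc2a (0.895), Cfap46 (0.893), Rp1 (0.879), Cfap57 (0.864), Ccdc162 (0.864) and Ccdc146 (0.863). Their r without the 2 libraries of most extreme score, the first KO and the third WT of day 14, ran from 0.697 (Cfap46) to 0.881 (Dcdc2a). Their day 14 log2 values ran from 0.21 (Kif21a) to 0.52 (Ccdc146), and none was called by edgeR.

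Of the marker lists, smooth muscle and club cells had the highest r with the score over the 17 libraries. Cartilage, mesothelial and airway basal markers, given below, also had positive r. For deviations from the group means the r of largest size was negative, at -0.82 for alveolar type 2 markers. The 18 club and secretory genes found summed to 18270 to 24120 CPM in KO and 16510 to 20950 CPM in WT at day 14. Of them 16 were positive, with a median of +0.222. At an unadjusted p under 0.05, 9 were higher, beside 4.92% of all genes. Without the first KO library 15 were positive, the median was 0.197 and 4 had an unadjusted p under 0.05. At day 0 they summed to 17820 to 21870 CPM in KO and 16000 to 20060 CPM in WT, and 17 were positive. The highest sum of all 17 was that of the first KO library of day 14. Over the 17 libraries, which give both scores, the r of the club score with the motile cilia score was 0.49, and 0.53 without the 2 libraries named above. For deviations from the group means it was 0.26.

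Smooth muscle of airways and vessels had r = 0.73, then 0.81 without those 2, and 0.69 for deviations from the group means. Its 10 genes summed to 906.4 to 1157 CPM in KO and 831.2 to 990 CPM in WT at day 14, and to 1071 to 1108 CPM in KO and 827.2 to 1014 CPM in WT at day 0. At day 14, 8 of 10 were positive, with a median of 0.158. At an unadjusted p under 0.05, 4 were higher and 1 was lower, beside 4.92% and 4.03% of all genes. Without the first KO library the median was 0.112 and 3 were higher. The 2 of highest CPM, in KO against WT, were Des (217 CPM, SD 18.1, against 187 CPM, SD 3.33) and Myh11 (220 CPM, SD 32.2, against 195 CPM, SD 17.4). The highest sum of the smooth muscle genes, 1157 CPM, was also in the first KO library of day 14.

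**Figure D5:**
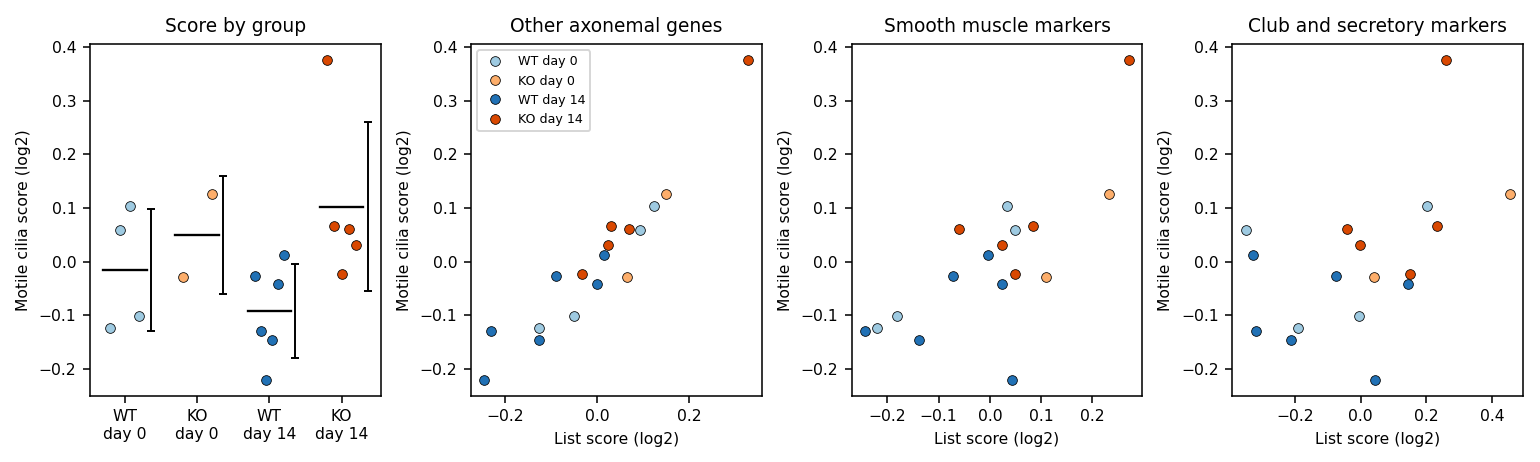
Motile cilia score (mean centred log2 CPM of the 44 genes) by group with mean (line) and SD (bar), and the same score against the scores of other axonemal genes, smooth muscle markers and club and secretory markers, 1 point per library. The first KO library of day 14, at 0.376, has the highest motile cilia score in every panel, and r with that score is 0.95 for other axonemal genes, 0.73 for smooth muscle and 0.49 for club markers.

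For the other marker lists, r with the motile cilia score is given over the 17 libraries, then without the same 2, then for deviations from the group means, and the order of the lists differs between these measures. The 8 mesothelial genes, all positive at day 14, summed to 458.9 to 618.4 CPM in KO and 430.9 to 542.2 CPM in WT (r = 0.43, 0.3 and 0.22). Of 14 alveolar type 2 genes 12 were positive, at 22320 to 28930 CPM in KO and 22490 to 26980 CPM in WT (r = -0.37, -0.14 and -0.82). Their median log2 value was 0.0518, and 0.127 without the first KO library. Of 12 alveolar type 1 genes 3 were positive, at 8414 to 9289 CPM and 8877 to 9637 CPM (r = -0.38, 0.01 and -0.02). The first KO library was second lowest of the 17 in the type 2 sum and lowest in the type 1 sum.

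Airway basal genes, 6 of 7 positive, summed to 7.566 to 13.12 CPM in KO and 5.308 to 12.62 CPM in WT (r = 0.25, 0.44 and 0.02). Neuroendocrine genes, 1 of 7 positive, summed to 8.407 to 10.38 CPM and 8.971 to 12.42 CPM (r = -0.04, -0.04 and 0.16). The 11 cartilage genes found, of which 3 passed the filter, summed to 14.61 to 19.89 CPM and 12.36 to 18.86 CPM (r = 0.43, 0.33 and 0.58). Heart and pulmonary vein muscle, 2 of 12 positive, summed to 1007 to 1598 CPM and 1305 to 2309 CPM (r = 0.03, -0.21 and 0.31). Endothelium, 4 of 12 positive, summed to 6642 to 6943 CPM and 6812 to 7650 CPM (r = -0.08, 0.03 and 0.3). Of the endothelial genes Car4, named here after its value was seen, was called higher by edgeR. Leukocyte genes, 2 of 10 positive, summed to 365.9 to 879.6 CPM and 474.2 to 820.2 CPM (r = -0.28, -0.44 and -0.18). At day 14 and an unadjusted p under 0.05, 4 alveolar type 1, 5 heart and pulmonary vein muscle and 3 endothelial genes were lower, beside 4.03% of all genes. Higher were 0, 0 and 1 genes of these lists, 2 mesothelial genes and 1 airway basal gene, beside 4.92% of all genes. The other lists of these last paragraphs, for type 2, neuroendocrine, cartilage and leukocyte genes, had 0 either way. No marker that was found stood at 0 in every library. The labels do not say how much airway each piece of lung held, and the part of these other cells in the motile cilia values was not tested.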

How the data were processed

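RNA was extracted with Qiagen RNeasy and sequenced from Illumina TruSeq libraries, per the labels' protocols. The authors deposited expected counts per gene for each library and a joint FPKM table; STAR 2.5.3, RSEM 1.3.0, limma 3.38.3 and build mm10 are named in the submitters' processing notes, and the annotation release is not given in the sources used here. The unit of the expected counts was read from the values, which are not all whole; they were rounded to whole numbers. Here filterByExpr by group kept 19557 genes, TMM scaled the libraries, and 1 edgeR 4.0.16 model with 4 group means was fitted (glmQLFit robust, glmQLFTest, two-sided, Benjamini-Hochberg over all genes tested, called under 0.05; common biological coefficient of variation 0.1524). The 95% intervals use the SE and a normal quantile, so they are narrow for so few libraries. CPM are TMM-scaled, and scores used a prior count of 2. DESeq2 1.42.0, limma-voom and limma 3.58.1 on log2(FPKM + 1) and log2(FPKM + 0.1) (genes with a mean of at least 0.1 FPKM), upper quartile scaling, no filter, only the groups compared and leaving out each library were tried, in R 4.3.3. The code was tested on simulated data.

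The 44 genes, the lists and the rules were chosen with earlier results of these data known. Values by library are given for the member of highest mean FPKM in each role, Foxj1, Dnah5, Dnah9, Dnah7a and Dnah7b, any member called, and the 5 of smallest p at day 14. From other pathway lists the 2 genes of largest log2 change with at least 1 CPM were named, from marker lists up to 2 of highest CPM, and the 10 genes most like the score. Group, role and list counts stand in for list tests. Counts of members at an unadjusted p and of positive members were added after the data were seen, as were the overlap with other genes' exons and the split by promoter spelling. Promoter windows are from RefSeq on GRCm38.p6, exon lengths and overlaps from GENCODE M21. Depth was 20607811 to 35743830 counts per library.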

Additional observations from a re-analysis of the deposited data

Results flagged for a closer look

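In groups of 4 to 6 libraries, 6 results had a lone library whose gap to its nearest neighbour exceeded Dixon's 95% critical value for the group's range. Of 54 groups tested, chance gives about 1 in 20. In the first KO library of day 14, Dnah3 was at 28.54 CPM (others 20.07 to 22.52 CPM), Ccdc40 at 29.21 CPM (others 22.23 to 23.35 CPM), Dnah5 at 41.64 CPM (others 32.43 to 33.82 CPM) and Foxj1 at 104.1 CPM (others 58.09 to 70.03 CPM). The motile cilia score of that library was 0.376, with the other 4 between -0.0222 and 0.06581. These 5 results share 1 library and are not independent. In the third WT library of day 0, Zmynd10 was at 12.29 CPM (others 9.847 to 10.26 CPM).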

How the results depend on the processing

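At day 14 the count of members called was 0 except with DESeq2 (4) and without the sixth WT library (range over libraries left out 0 to 1, the 1 being Dnah10 at 0.419, adjusted p = 0.0462). DESeq2 gave Dnah3 0.449 (adjusted p = 0.0207), Dnah9 0.318 (0.0192), Dnah10 0.362 (0.0185) and Dnah12 0.429 (0.0357); it called 109 genes in all, against 21 by edgeR and 16 by limma-voom. Members higher at an unadjusted p under 0.05 numbered 13 on log2(FPKM + 0.1) values against 22, and 15 to 25 with a library left out, lowest without the first KO library. Members whose groups did not overlap numbered 1 on log2(FPKM + 0.1) values against 3, and 3 to 10 with a library left out: 10 without the third KO library, 6 without the sixth WT library, and 5 without the first WT or the second KO library. The share of all genes is not given for these counts of groups that did not overlap. With fewer libraries compared, groups of any gene more easily fail to overlap, so a rise in the count cannot be read alone. The median stayed between 0.157 and 0.278 with a library left out and between 0.172 and 0.248 otherwise. With a library left out, Foxj1 ran from -0.0344 (without the first KO library) to 0.202 and Tekt2 from -0.0694 to 0.00816. Tekt2 turned positive without the fifth KO library, and to 0.0694 on log2(FPKM + 1) values with or without a filter and 0.0743 on log2(FPKM + 0.1) values. The causes were not tested. Of 425 values of the 17 members given by library under these alternatives, 415 kept direction and side of the threshold.

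With a library left out, the median ran from 0.0313 to 0.144 at day 0, from -0.0988 to -0.0246 between days in WT, from -0.00301 to 0.118 in KO, and from 0.0553 to 0.162 for the difference of the KO effects, with 0 called in each. The fit of only the groups compared gives no value for that difference. Leaving out 1 KO library of day 0 leaves 1, assumed to vary like the other groups. Labels give no pairing or batch, though the S numbers in the library titles separate the genotypes. No paired analysis was possible because the labels tie no library of a group to a library of another group. Genes of few counts, such as Mcidas, allow only wide intervals.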
